A study of Rattus norvegicus with 24 samples.

Results

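The genes described here encode the proteins that splice pre-mRNA, and they were followed in the hypothalamus of rats that were restrained, with or without inhaled linalool. Members were all array probe sets whose single gene symbol named an SR protein (Srsf), a protein of the small nuclear ribonucleoprotein particles (Snrp), a heterogeneous nuclear ribonucleoprotein (Hnrnp) or a subunit of splicing factor SF3a or SF3b (Sf3a, Sf3b). This gave 74 probe sets of 46 genes among 31042 probe sets tested. They comprised 19 SR protein probe sets of 10 genes, 11 snRNP probe sets of 10 genes, 31 hnRNP probe sets of 17 genes and 13 SF3 probe sets of 9 genes. The rule reads gene symbols alone.

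All 18 animals were male Wistar rats, given as 7 weeks of age, 6 to a group. The linalool group was restrained for 2 h in a wire mesh cage while 20 µL of racemic (R,S)-linalool, a floral monoterpene alcohol, evaporated in a box of 40 L. The stress group had the same restraint with no odorant, and the control group had neither. No rats that inhaled linalool without restraint were among these samples, so the odorant was measured on top of restraint alone.

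Splicing removes introns from pre-mRNA and joins the exons. Sm proteins form a ring around the small nuclear RNAs, and the resulting snRNP particles recognise the splice sites and build the spliceosome. SF3a and SF3b belong to the U2 particle, which binds the branch point. SR proteins mostly bind exons and promote their inclusion, while many hnRNPs coat the transcript and often favour skipping, so the balance of both sets which isoforms a cell makes. Neurons use alternative splicing heavily, for ion channels, receptors and adhesion molecules among others.

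Promoter windows of 4 members are shown because these genes lay at opposite ends of the linalool comparison: measured against the spread between rats, Snrpd1 and Snrpe were the highest of the 74 relative to stress, and Hnrnpd and Hnrnpa0 the lowest. Each runs from 250 bases before to 50 bases after the annotated start in RefSeq, assembly GRCr8, written 5′ to 3′ on the gene's strand. The windows are chr18:1969424-1969723 on the plus strand for Snrpd1, chr13:47609202-47609501 on the minus strand for Snrpe, chr14:9919507-9919806 on the plus strand for Hnrnpd and chr17:6512879-6513178 on the plus strand for Hnrnpa0. Capitals mark any match, on either strand, to 7 motifs: the TATA box TATAAA, the CCAAT box, the GC box core GGGCGG, the ETS core CCGGAAG, the NRF1-type core GCATGCGC, the CRE palindrome TGACGTCA and the E-box CACGTG. A stretch of capitals can hold overlapping matches.
Snrpd1: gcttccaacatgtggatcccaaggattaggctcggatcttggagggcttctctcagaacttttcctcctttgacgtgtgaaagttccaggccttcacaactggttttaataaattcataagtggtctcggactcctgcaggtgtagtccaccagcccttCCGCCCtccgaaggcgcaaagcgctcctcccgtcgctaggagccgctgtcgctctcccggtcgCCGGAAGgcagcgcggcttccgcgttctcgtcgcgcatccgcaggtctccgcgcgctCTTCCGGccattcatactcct
Snrpe: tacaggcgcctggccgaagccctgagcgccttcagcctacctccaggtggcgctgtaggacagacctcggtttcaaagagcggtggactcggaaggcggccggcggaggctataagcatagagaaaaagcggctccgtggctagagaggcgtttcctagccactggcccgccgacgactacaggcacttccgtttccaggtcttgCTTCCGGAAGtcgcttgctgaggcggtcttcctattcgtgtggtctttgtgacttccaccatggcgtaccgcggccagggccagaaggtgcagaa
Hnrnpd: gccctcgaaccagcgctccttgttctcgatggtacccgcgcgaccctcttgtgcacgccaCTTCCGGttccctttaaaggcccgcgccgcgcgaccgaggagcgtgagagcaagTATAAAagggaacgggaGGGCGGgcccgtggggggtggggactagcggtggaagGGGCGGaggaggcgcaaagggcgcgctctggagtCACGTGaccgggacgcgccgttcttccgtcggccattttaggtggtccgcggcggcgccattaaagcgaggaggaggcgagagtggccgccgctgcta
Hnrnpa0: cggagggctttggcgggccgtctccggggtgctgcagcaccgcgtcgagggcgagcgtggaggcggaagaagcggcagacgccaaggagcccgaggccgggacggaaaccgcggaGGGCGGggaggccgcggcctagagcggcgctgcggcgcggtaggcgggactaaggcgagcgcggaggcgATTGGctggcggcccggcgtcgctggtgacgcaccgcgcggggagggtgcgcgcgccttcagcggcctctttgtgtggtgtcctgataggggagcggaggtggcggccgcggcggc

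The ETS core occurred at 2 positions in the Snrpd1 window and at 2 in the Snrpe window, where the matches of the opposite strands overlap. They occurred at 1 position in the Hnrnpd window and at none in that of Hnrnpa0. Of the 46 member genes 44 had a window, and 14 of these (31.8%) held it, against 8.75% of all 33469 windows. It was in 4 of 10 snRNP windows and in 2 of 16 hnRNP windows. The GC box core was in 61.4% of member windows and 33.1% of all windows, and in 3 of 10 snRNP and 13 of 16 hnRNP windows. For the CCAAT box the shares were 52.3% and 37.5%, with 5 of 10 snRNP and 13 of 16 hnRNP windows. The TATA box was in 15.9% of member windows and 14.2% of all windows, and in 0 snRNP and 4 hnRNP windows. For the E-box the shares were 9.09% and 6.42% (0 snRNP and 3 hnRNP windows), and for the NRF1-type core they were 6.82% and 2.47% (1 and 0). None of the 44 held the CRE palindrome, which 1.83% of all windows held. These are matches of letters and no binding was measured.

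One array was hybridised per rat, and the deposited values were log2 signals per probe set. Normalization by the authors ran over 12 arrays at a time, the control and stress rats first and then the same 6 stress arrays together with the 6 linalool arrays, so the linalool and control groups were never set against each other. For 83.5% of all probe sets in the control set and 83.7% in the linalool set the residual SD between rats of a group was under 0.01 log2 units, with a median of 0.000166 and 0.000159. Such probe sets are called compressed here: the log2 size of their differences is not interpretable, so their differences are expressed in units of the residual SD, and the standard error of such a difference between 6 and 6 rats is 0.577. Of the 74 members 56 were compressed in the linalool set and 67 in the control set. The 6 values of the same stress arrays nevertheless followed each other across the sets, with a correlation per member of 0.565 to 0.999, a median of 0.983 and 61 members over 0.9, while 18 members had an SD that differed over 10-fold between the sets. Of 16 hypothalamic marker genes measured, 8 lay above the median of every column: Avp, Pmch, Hcrt, Npy, Sst, Gal, Hdc and Th. Pomc, Oxt, Crh, Trh, Ghrh, Otp, Sim1 and Nkx2-1 did not. All 6 thalamic markers did, as did all measured neuronal (6), astrocyte (6), oligodendrocyte (5) and endothelial markers (6). Of microglial markers 5 of 6 did, of meningeal markers 6 of 14 and of blood markers 1 of 3. In RNA from a tissue block, fewer cells of a type and less RNA per cell cannot be told apart.

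Linalool inhalation during restraint was set against restraint alone to find what the odorant changed in restrained animals. At an adjusted p under 0.05, by limma with Benjamini-Hochberg adjustment over all probe sets, 20 of the 74 splicing factor probe sets were higher and 14 were lower in linalool rats, 45.9% in all. The background was high: of all 31042 probe sets 25.0% passed, 14.2% higher and 10.8% lower. Among the 15521 probe sets at or above the median level 37.7% passed, and among the 64 members there 48.4%. The median difference was 0.197 residual SDs over the members and -0.0136 over all probe sets. The values of the 6 linalool and 6 stress rats did not overlap at 21 members (13 higher, 8 lower), or 28.4%, against 11.9% of all probe sets. By family, snRNP proteins had 7 higher and 1 lower, also 4 and 0 under quantile normalization and 11 and 0 when every column was centred on its median. SR proteins had 8 higher and 1 lower, but 1 and 1 under quantile normalization and 18 and 0 under centring. The hnRNPs had 3 higher and 10 lower, also 2 and 7 under quantile normalization, but 27 and 4 under centring. SF3 subunits had 2 and 2, with 2 and 0 under quantile normalization and 10 and 2 under centring. Centring shifts each column by one amount, and the column medians spanned 0.021 log2 units, many times the residual SD of a compressed probe set. It called 66 members higher and 6 lower, or 97.3%, where 93.4% of all probe sets passed and 94.9% of all calls were higher. Quantile normalization called 23.0% of the members and 8.41% of all probe sets. Among the 18 members that were not compressed, 10 were higher and 5 lower, 83.3% against 49.7% of all such probe sets, and under the same centring 10 and 6. Compression is read from these same arrays and depends on which were scaled together. Over the members the 6 stress arrays had an SD here of 0.00105 to 909 times that in the control set, highest at Snrpd1 (1379320_at). The 83.3% and the log2 sizes of these members therefore hold within this set only, and the share is not separate support. Of the 56 compressed members 33.9% passed, against 20.2% of all compressed probe sets. All 9 compressed members called lower turned positive under centring, while none of the 15 called members that were not compressed turned under either scaling. Centring could not have turned these 15, because each differs by more than the 0.021 log2 units that the column medians spanned.

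**Figure D1:**
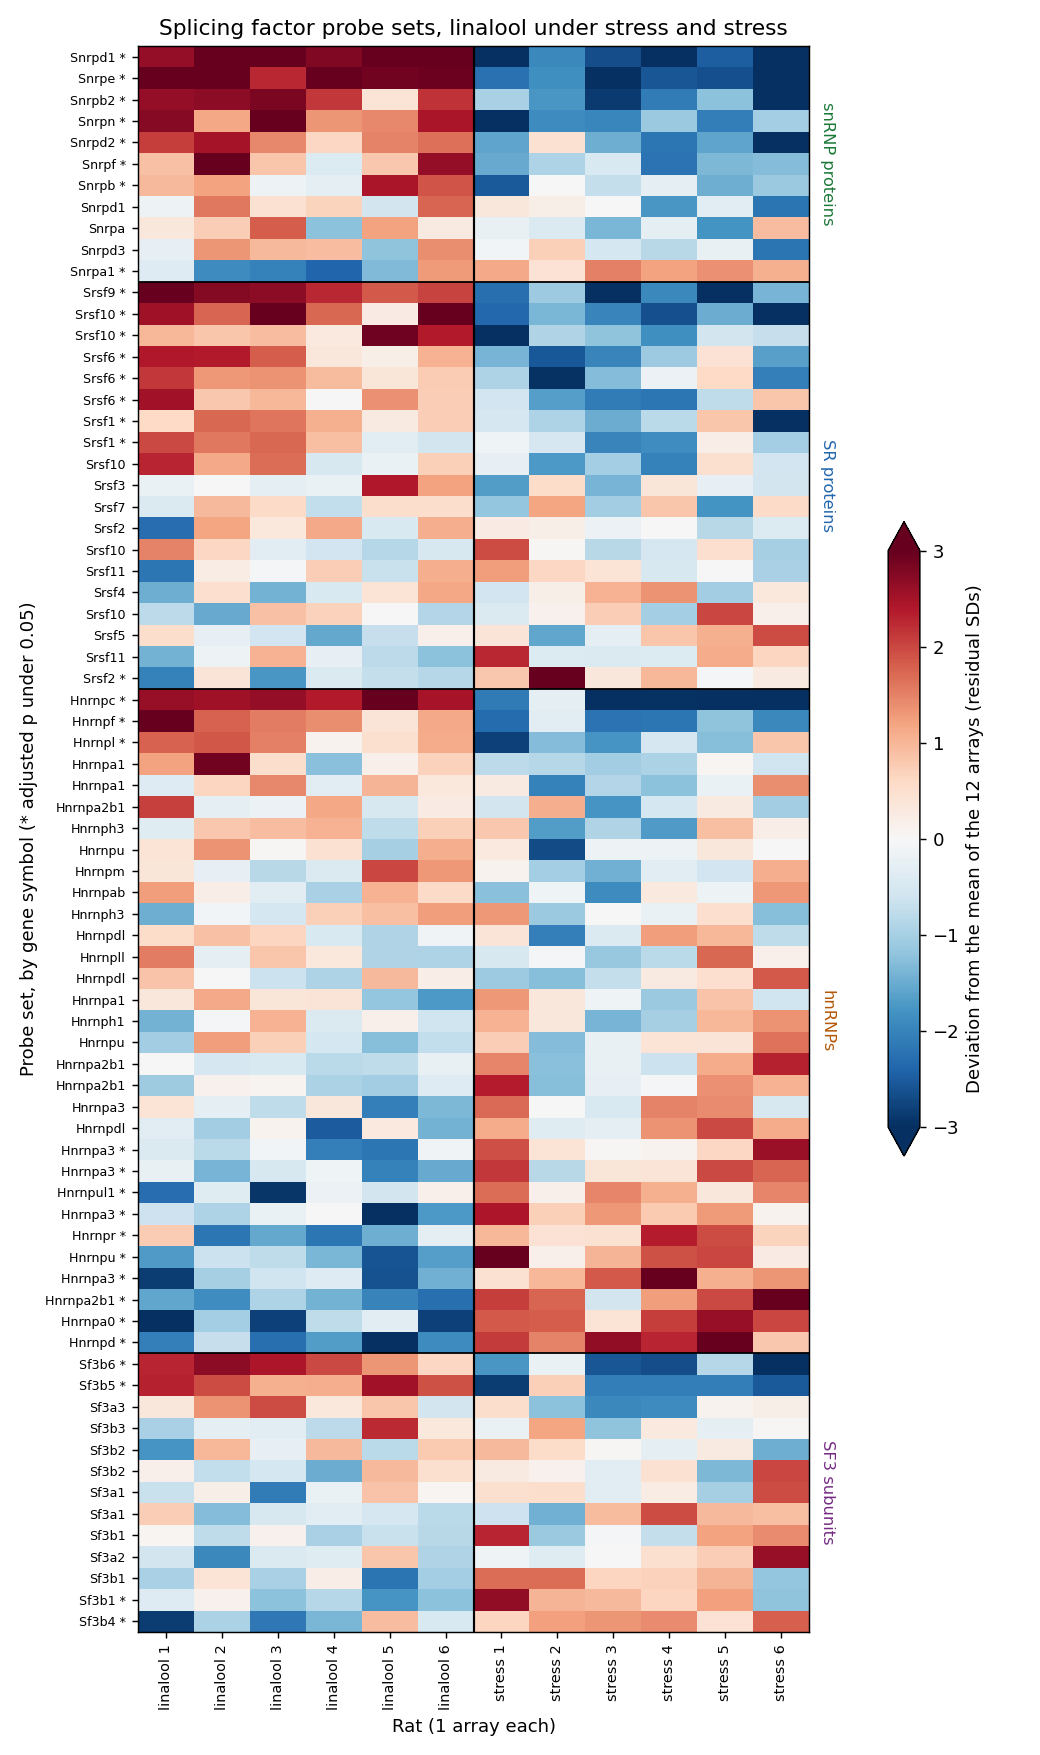
Deviation of each rat's value from the mean of the 12 arrays, in residual SDs (colour, capped at 3 in both directions), for the 74 probe sets (down the page, by family and then by difference) in 6 linalool and 6 stress rats (across). Blocks of opposite colour stand at the top of the snRNP and SR families (linalool high) and at the bottom of the hnRNPs (linalool low). Hnrnpc and Hnrnpf at the top of the hnRNPs, and Sf3b6 and Sf3b5 at the top of the SF3 subunits, are also split (linalool high). Most of the remaining probe sets show no split.

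Proteins of the snRNP particles gave the 2 largest differences among the members in residual SDs, 6.53 at Snrpd1 and 6.18 at Snrpe. Snrpd1, which encodes the Sm ring protein SmD1, had log2 signals of 8.23 to 8.42 with a median of 8.29 in linalool rats, against 7.32 to 7.72 with a median of 7.61 in stress rats (probe set 1379320_at). Every linalool rat lay above every stress rat. The difference was 0.72 ± 0.06 log2 units (SE, n = 6 each, adjusted p = 0.000104 by limma). Snrpe, which encodes SmE of the same ring, had 11.35 to 11.42 (median 11.39) in linalool rats, against 10.97 to 11.14 (median 11.11) in stress rats. Again no values overlapped, and the difference was 0.30 ± 0.03 (adjusted p = 0.00012). Snrpb2, the U2 particle's B'' protein that binds U2 RNA, had 9.08 to 9.23 (median 9.20) in linalool rats, against 8.82 to 9.0 (median 8.94) in stress rats. The groups stood apart by a narrow margin, with a difference of 0.26 ± 0.03 (adjusted p = 0.000651).

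The other snRNP members that rose were mostly on the compressed scale, where values are deviations from the mean of the 12 arrays in residual SDs. Snrpn, the brain-enriched and imprinted relative of SmB, lay at 1.16 to 3.11 (median 1.95) in linalool rats, against -4.19 to -1.03 (median -1.92) in stress rats. The groups did not overlap, and the difference was 4.08 residual SDs (adjusted p = 0.00087). Snrpd2 (SmD2) was 3.26 residual SDs higher (adjusted p = 0.00321) and Snrpf (SmF) 2.59 (adjusted p = 0.00926), both without overlap. Under quantile normalization Snrpn was at 1.27 (adjusted p = 0.127), Snrpd2 at 0.558 (adjusted p = 0.571) and Snrpf at 0.0479 (adjusted p = 0.992), so none passed. Under centring all of these passed as higher, at 1.56, 1.51 and 1.51. Snrpb (SmB), whose probe set was not compressed, had 9.67 to 9.84 (median 9.76) in linalool rats, against 9.53 to 9.69 (median 9.63) in stress rats, a difference of 0.13 ± 0.04 log2 units with the highest stress value above the lowest linalool value (adjusted p = 0.0248). Snrpb and Snrpn are close paralogs, and whether either probe set also binds the other's RNA was not tested. Snrpa1, the U2 A' protein, was the 1 snRNP member that fell, with overlapping groups (-2.24 residual SDs, adjusted p = 0.0189). It turned positive under quantile normalization, at 1.35, and under centring, at 1.44, and it did not pass by the rank-sum test (adjusted p = 0.0883) or with the replicate block (adjusted p = 0.0591). Snrpa of the U1 particle at 1.06, Snrpd3 at 1.05 and the other Snrpd1 probe set at 1.25 residual SDs did not pass. The mean deviation over the 11 snRNP probe sets was 0.703 to 1.99 residual SDs in linalool rats, against -1.99 to -0.634 in stress rats, with no overlap and a median difference of 2.59.

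**Figure D2:**
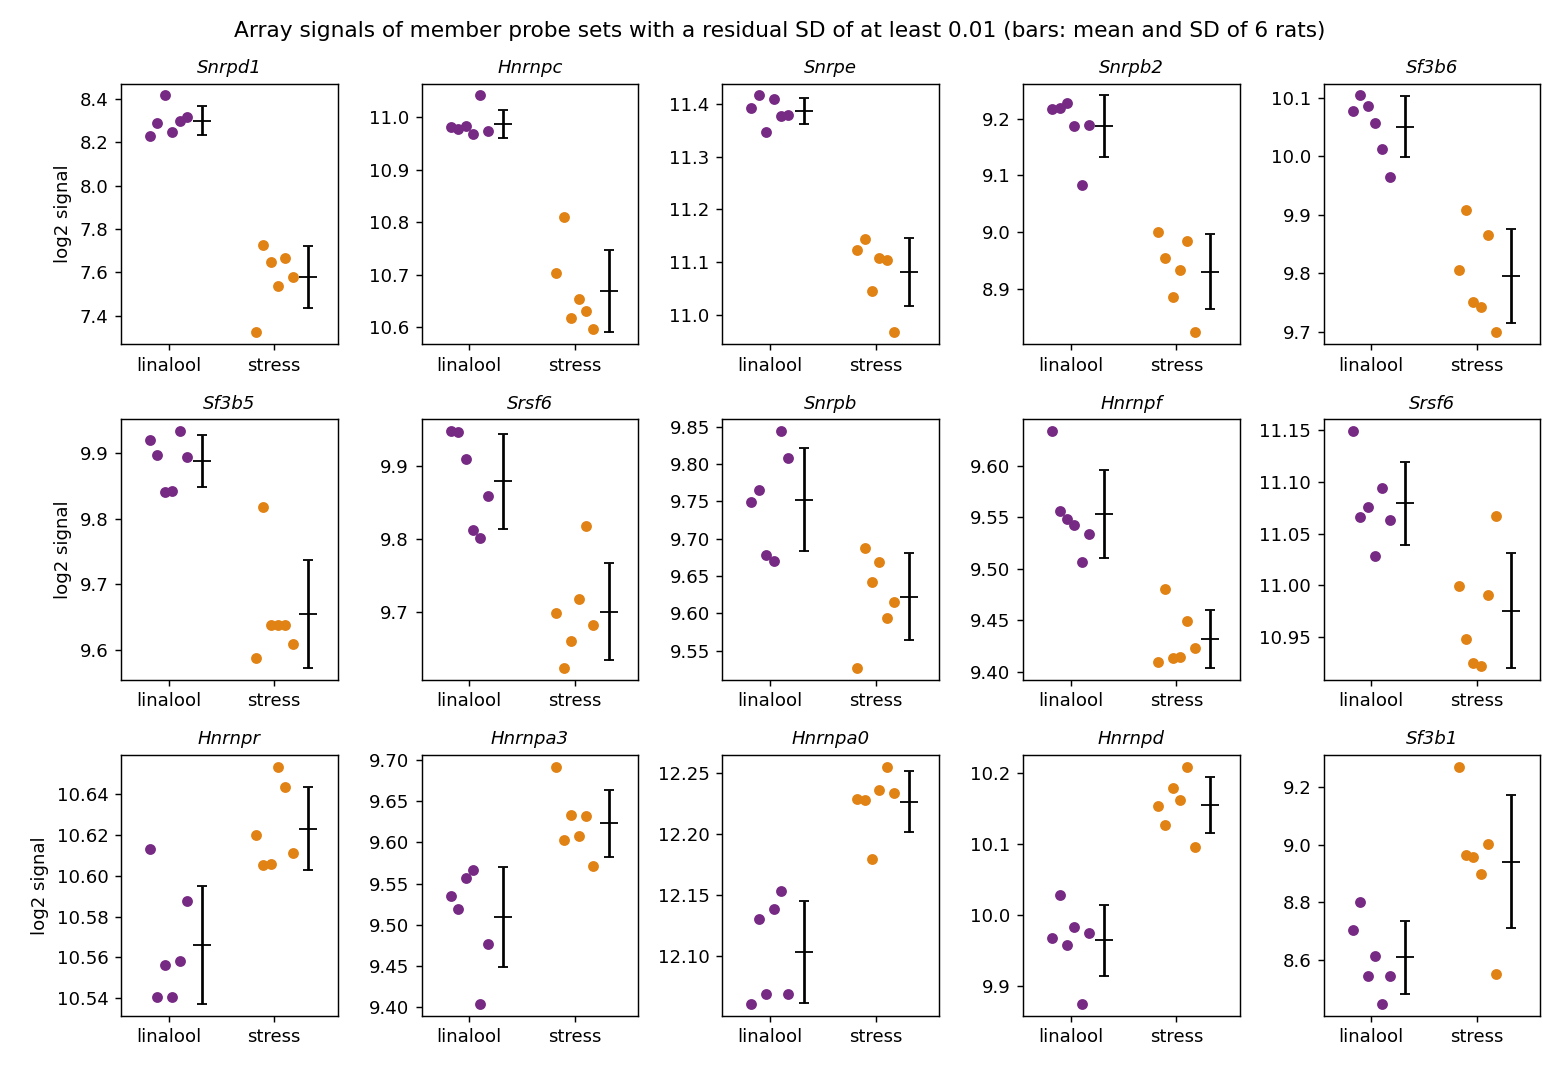
Log2 signals of the 15 called members that were not compressed, 1 point per rat, linalool left of stress, with the mean and SD of 6 rats beside the points; each panel has its own vertical range, which does not start at 0. The panels run down from Snrpd1 at 0.72 log2 units to Sf3b1 at -0.33. Snrpd1, Hnrnpc, Snrpe, Snrpb2, Sf3b6, Sf3b5, Hnrnpf, Hnrnpa3, Hnrnpa0 and Hnrnpd show no overlap between the groups, and the other panels do.

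Of the SR proteins, 4 genes had probe sets that rose. Srsf9, a compact SR protein, lay at 1.84 to 3.10 (median 2.46) residual SDs from the 12-array mean in linalool rats, against -4.65 to -1.09 (median -2.10) in stress rats. The groups stood apart, and the difference was 4.88 residual SDs (adjusted p = 0.000623). Srsf10, known as a splicing repressor when it is dephosphorylated, rose at 2 of its 5 probe sets, by 4.36 (1380269_at, adjusted p = 0.000643) and 2.78 residual SDs (1382052_at, adjusted p = 0.00689), both without overlap. The other Srsf10 probe sets were at 1.70, -0.05 and -0.53 and did not pass, the first at an adjusted p of 0.051.

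Srsf6 rose at all 3 of its probe sets. At 1371999_at its log2 signals were 9.80 to 9.95 (median 9.88) in linalool rats, against 9.62 to 9.82 (median 9.69) in stress rats. Stress rat 5 was the 1 stress rat within the linalool range, and the difference was 0.18 ± 0.04 (adjusted p = 0.00634). The others were 0.10 ± 0.03 log2 units (1372075_at, adjusted p = 0.0198) and 2.27 residual SDs higher (1383466_at, adjusted p = 0.0157). Under quantile normalization 1371999_at still passed (adjusted p = 0.0117), but 1372075_at and 1383466_at did not (adjusted p = 0.0674 and 0.172). Srsf1, the founding member that also acts in export and translation, rose at both probe sets, by 1.99 (1374072_at, adjusted p = 0.0268) and 1.77 residual SDs (1371581_at, adjusted p = 0.0468), with overlapping groups. Both turned negative under quantile normalization, at -0.15 and -1.16. Srsf2, also named SC35 and used as a marker of nuclear speckles, fell at 1371839_at (-1.80 residual SDs, adjusted p = 0.0422), while its other probe set was at 0.326. At 1371839_at quantile normalization gave -0.679 (adjusted p = 0.449) and centring 1.43. Srsf3 at 0.985, Srsf4 at -0.425, Srsf5 at -0.799 and Srsf7 at 0.475 did not pass, nor did the Srsf11 probe sets at -0.278 and -0.926.  The mean deviation over the 19 SR probe sets was 0.286 to 0.852 in linalool rats, against -1.02 to -0.148 in stress rats.

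Of the hnRNPs 3 rose, led by Hnrnpc, a nuclear protein that coats U-rich stretches of new transcripts. Its log2 signals were 10.97 to 11.04 (median 10.98) in linalool rats, against 10.60 to 10.81 (median 10.64) in stress rats. The groups were far apart, with stress rat 2 nearest to the linalool rats, and the difference was 0.32 ± 0.03 (adjusted p = 0.000219). Hnrnpf, which binds G-rich sequences, had 9.51 to 9.63 (median 9.55) in linalool rats, against 9.41 to 9.48 (median 9.42) in stress rats. They did not overlap, and the difference was 0.12 ± 0.02 (adjusted p = 0.00216). Hnrnpl, a binder of CA repeats, was 2.27 residual SDs higher with overlap (adjusted p = 0.016), and it was -2.05 under quantile normalization.

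The hnRNPs that fell were led by Hnrnpd, or AUF1, which binds AU-rich elements and promotes the decay of many mRNAs. It had 9.87 to 10.03 (median 9.97) in linalool rats, against 10.10 to 10.21 (median 10.16) in stress rats. All linalool rats were below all stress rats, and the difference was -0.19 ± 0.03 log2 units (adjusted p = 0.000698). Hnrnpa0, another binder of AU-rich elements, had 12.06 to 12.15 (median 12.10) in linalool rats, against 12.18 to 12.25 (median 12.23) in stress rats. The groups did not overlap, and the difference was -0.12 ± 0.02 (adjusted p = 0.00163). Hnrnpr, an RNA carrier in axons, differed by -0.06 ± 0.01 (adjusted p = 0.015), with linalool rat 1 inside the stress range.

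Hnrnpa3 fell at 4 of its 5 probe sets: 1370872_at at -2.97, 1394741_at at -2.20, 1374405_at at -1.92 and 1370871_at at -1.89 residual SDs (adjusted p from 0.00451 to 0.0359). The fifth, 1388119_at, was at -1.22 and did not pass (adjusted p = 0.149). Under quantile normalization 1370872_at, 1374405_at and 1370871_at were at -0.431, -0.100 and -0.108 and did not pass. Under centring the same probe sets passed as higher, at 1.40, 1.44 and 1.43. Only 1394741_at stayed lower under both, at -2.20 (adjusted p = 0.0345) and -2.12 (adjusted p = 0.0379). At 1394741_at, the 1 that was not compressed, log2 signals were 9.40 to 9.57 (median 9.53) in linalool rats, against 9.57 to 9.69 (median 9.62) in stress rats. Those ranges nearly met, without overlap. Hnrnpa2b1, which carries RNAs with trafficking elements in neurons and glia, fell at 1395561_at (-3.34 residual SDs, adjusted p = 0.00252), and its other 3 probe sets were at -1.08, -0.922 and 0.838. At 1395561_at quantile normalization gave -1.09 (adjusted p = 0.185) and centring 1.39. Hnrnpu, a scaffold attachment protein, fell at 1370170_at (-2.90, adjusted p = 0.00573), with its other probe sets at -0.542 and 0.786. At 1370170_at quantile normalization gave -2.02 (adjusted p = 0.0507) and centring 1.44. Hnrnpul1, a relative of Hnrnpu, fell by 2.05 (adjusted p = 0.0263), but was at 0.192 under quantile normalization. None of the remaining hnRNPs passed: the 3 probe sets of Hnrnpa1, the abundant shuttling hnRNP, were at 1.39, 0.899 and -0.222, and the 3 of Hnrnpdl at 0.204, 0.157 and -1.63. Hnrnpab, Hnrnph1, Hnrnph3, Hnrnpll and Hnrnpm lay between -0.44 and 0.79. Over the 31 hnRNP probe sets the mean deviation was -0.654 to 0.0572 in linalool rats, against -0.382 to 0.767 in stress rats, so the groups overlapped.

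Of the SF3 subunits 2 rose, both small proteins of SF3b: Sf3b6, which touches the branch point adenosine, and Sf3b5. Sf3b6 had 9.97 to 10.10 (median 10.07) in linalool rats, against 9.70 to 9.91 (median 9.78) in stress rats. Sf3b5 had 9.84 to 9.93 (median 9.90) in linalool rats, against 9.59 to 9.82 (median 9.64) in stress rats. Neither overlapped, although stress rat 2 came near for Sf3b5. The differences were 0.25 ± 0.04 (adjusted p = 0.00124) and 0.23 ± 0.04 (adjusted p = 0.00154). Sf3b1, the largest subunit and the target of splicing inhibitors such as pladienolide B, gave negative differences at all 3 probe sets. At 1382691_at it had 8.45 to 8.80 (median 8.58) in linalool rats, against 8.55 to 9.27 (median 8.96) in stress rats. Stress rat 6 was the 1 stress rat inside the linalool range, and the difference of -0.33 ± 0.11 passed at an adjusted p of 0.0421. Under quantile normalization this probe set was at -1.79 residual SDs and did not pass (adjusted p = 0.0648). At 1389840_at the difference was -0.19 (adjusted p = 0.0753) and at 1390234_at -1.02 residual SDs (adjusted p = 0.219). Sf3b4, which helps to tether the U2 particle to the pre-mRNA, fell by 2.29 residual SDs with overlap (adjusted p = 0.0161), but was at 0.111 under quantile normalization and 1.42 under centring. Sf3a1, Sf3a2, Sf3a3, Sf3b2 and Sf3b3 lay between -1.11 and 1.41 and did not pass.

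**Figure D3:**
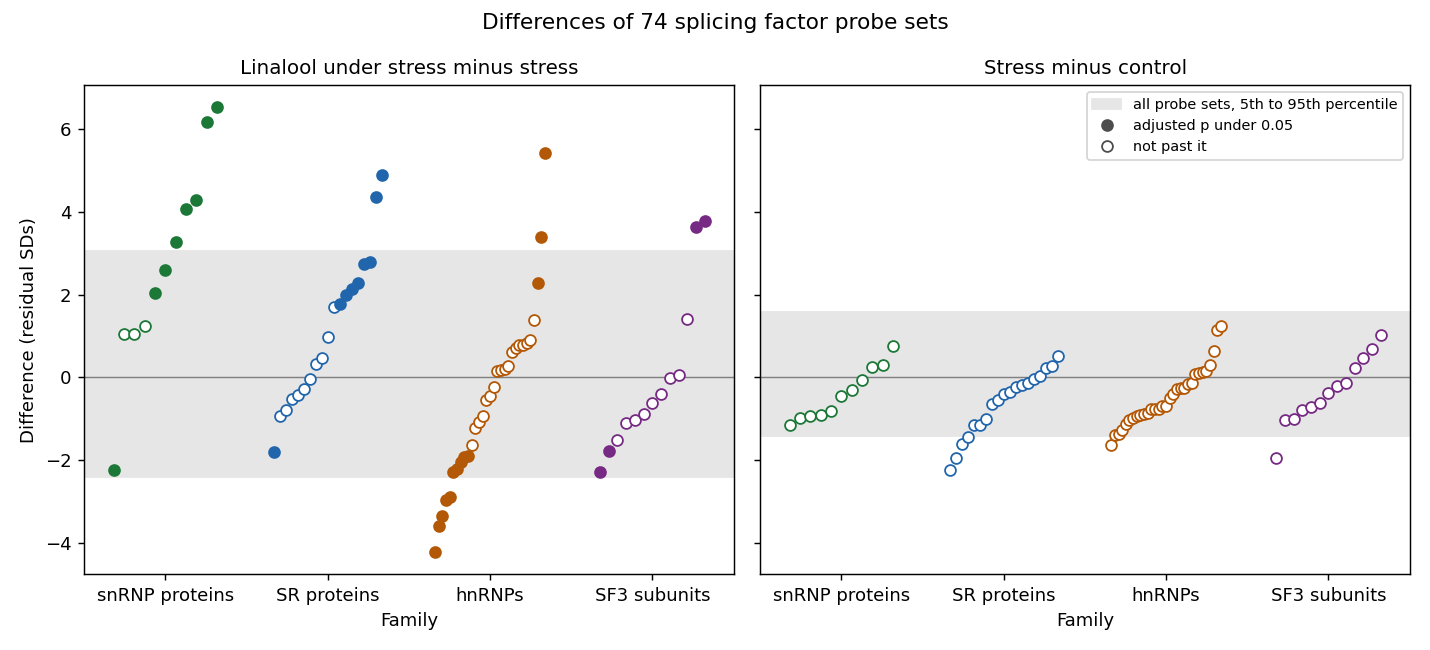
Difference of each of the 74 probe sets in residual SDs by family, linalool minus stress on the left and stress minus control on the right, with filled points at an adjusted p under 0.05 and a grey band from the 5th to the 95th percentile of all probe sets (-2.41 to 3.05 left, -1.41 to 1.58 right). The left panel has 34 filled points, reaching 6.53 at Snrpd1 and -4.22 at Hnrnpd, and the right panel has none.

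Probe sets of one gene share their gene and are not replicates of it. Of the 15 genes with more than 1 probe set (43 probe sets), 9 had all their linalool differences on one side of 0, 2 had all probe sets past the threshold (Srsf1 and Srsf6), 7 had some and 6 had none. At none of the 15 did probe sets pass in opposite directions. The gap was widest for Snrpd1, at 6.53 and 1.25 residual SDs. At Srsf2, Srsf10, Hnrnpa2b1 and Hnrnpu, probe sets that passed stood beside others of the opposite sign that did not pass.

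**Figure D4:**
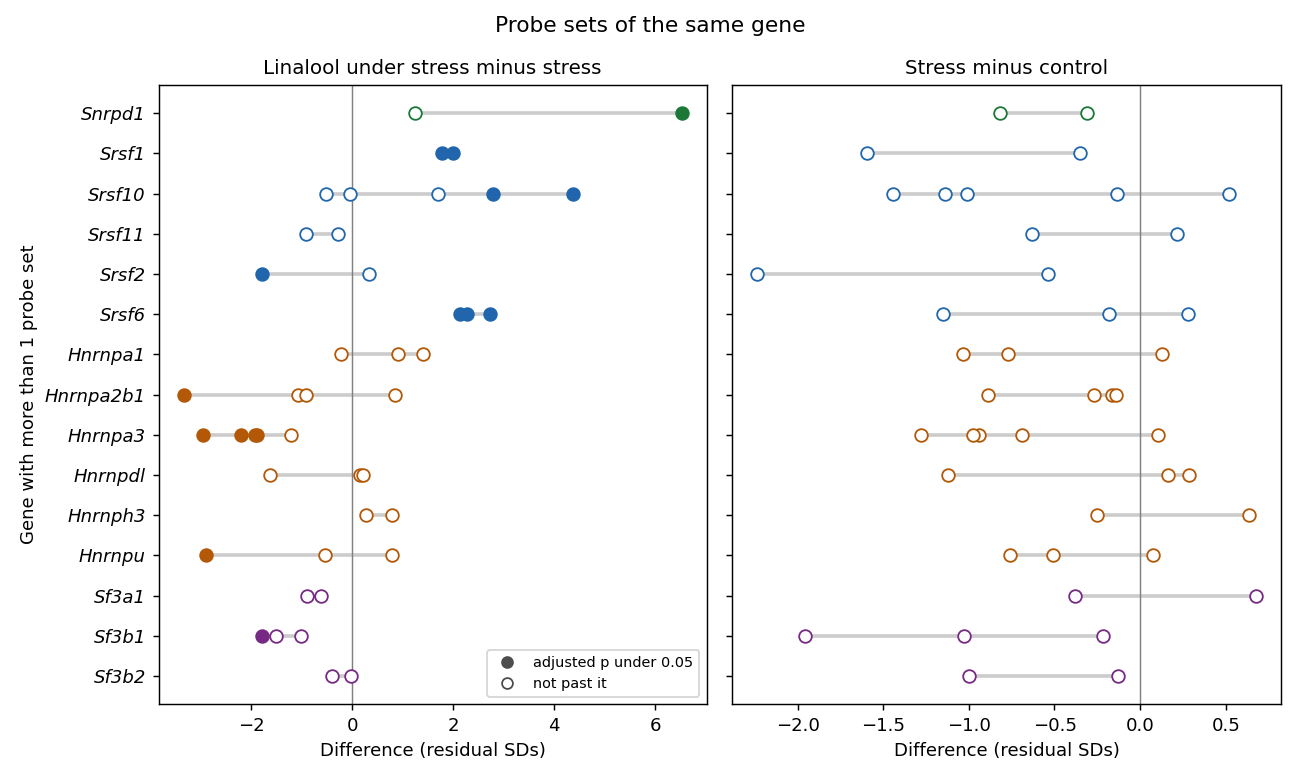
Differences in residual SDs for each probe set of the 15 genes that have several, linalool minus stress on the left and stress minus control on the right (the horizontal ranges differ), with filled points at an adjusted p under 0.05. Srsf1, Srsf6 and Hnrnpa3 have their filled points close together, while the points of Snrpd1, Srsf10, Hnrnpa2b1 and Hnrnpu, filled and open together, spread widely.

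Other genes of the splicing pathway were read from lists of 171 genes, of which 157 were measured by 280 probe sets. In linalool rats 62 of these were higher and 25 lower than in stress rats, 31.1% against the 25.0% of all probe sets. Under quantile normalization 18 were higher and 14 lower, where 8.41% of all probe sets passed. Under median centring 241 were higher and 21 lower, where 93.4% of all probe sets passed. The counts by list under these 2 scalings, given below, stand against the same shares. Sm-like and snRNP assembly genes had 10 higher and 1 lower of 23 (47.8%), with a median of 1.62 residual SDs. Under quantile normalization they had 3 and 0, and under centring 23 and 0. Lsm5 at 0.31 log2 units (adjusted p = 0.000478) and Lsm2 at 0.15 (adjusted p = 0.00191), members of the Sm-like ring around U6 RNA, were among those that rose, as was Lsm10 of the U7 particle at 3.18 residual SDs. Strap, a partner of the SMN complex, was the 1 that fell, at -1.91 residual SDs.

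Exon junction and export genes had 9 higher and 0 lower of 29 by limma, or 31.0% against 25.0% of all probe sets. None was lower at an unadjusted p under 0.05 by limma or by the exact rank-sum test. Under quantile normalization 5 were higher and 0 lower, and under centring 28 and 0. Magoh of the exon junction complex rose by 0.31 log2 units (adjusted p = 0.000371), the cap-binding Ncbp2 by 0.22 (adjusted p = 0.000881) and the export adaptor Alyref by 0.17 (adjusted p = 0.00328). Other spliceosome core genes had 19 higher and 7 lower of 77, or 33.8% (6 and 3 under quantile normalization, 66 and 6 under centring). Cwc15, which joins the catalytic spliceosome, rose by 0.26 log2 units (adjusted p = 0.000216) and Prpf38a, needed for spliceosome activation, by 0.18 (adjusted p = 0.00044), while Xab2 rose by 5.54 residual SDs (adjusted p = 0.000286). On the lower side Sf1, which first binds the branch point, differed by -0.34 (adjusted p = 0.000414), Rbm17 by -0.35 at 1396185_at (adjusted p = 0.000603, with its other called probe sets higher, at 3.15 and 2.11 residual SDs) and the helicase Ddx39b by -0.13 (adjusted p = 0.00292).

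Kinases and partners of SR proteins had 10 higher and 5 lower of 51 (1 and 1 under quantile normalization, 44 and 3 under centring). That is 29.4%, near the 25.0% of all probe sets. Rbm39, a splicing coactivator, rose at 1381967_at (4.17 residual SDs) and 1395092_at (0.23 log2 units), and Luc7l by 3.36 residual SDs, while the SR protein kinases Srpk1 and Srpk2 fell, at -1.94 and -2.32 residual SDs, as did Scaf1 at -2.52. Tissue splicing regulators had 14 higher and 12 lower of 100 and a median of -0.384 (3 and 10 under quantile normalization, 80 and 12 under centring). Their share of 26.0% was also near that of all probe sets. The speckle and paraspeckle protein Nono rose by 0.31 log2 units (adjusted p = 0.000122), Elavl1, or HuR, by 5.82 and the muscleblind gene Mbnl2 by 5.32 residual SDs. Rbfox2, which binds introns near many neuronal exons, fell by 0.45 log2 units (adjusted p = 0.00012), and so did Celf1 at -0.29 (adjusted p = 0.000406) and Ddx17 at -4.65 residual SDs.

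RNA spiked into the samples or used in hybridisation also differed between the linalool and stress arrays. Of 57 array control probe sets 27 passed (17 higher and 10 lower), and among them 15 of 27 Bacillus probe sets were higher and none lower (9 and 0 under quantile normalization, 27 and 0 under centring). In the stress comparison 1 of the 57 passed. Of the 9 probe sets along rat beta-actin, GAPDH and hexokinase transcripts 2 were higher and 4 lower. The beta-actin 5′ probe set was 3.55 residual SDs higher and the middle one 2.17 higher, while the 3′ one was at -1.10 and did not pass. For GAPDH the 5′, middle and 3′ probe sets were all lower, at -1.79, -2.48 and -1.81, and for hexokinase the 5′ one was lower, at -3.33, with the others at -0.13 and -1.12. Thalamic marker probe sets had 0 higher and 2 lower of 12 by limma, with 7 lower at an unadjusted p under 0.05 (37.7% of all probe sets had one), a median of -1.35 and a mean deviation of -1.58 to 0.25 in linalool rats, against -0.81 to 1.73 in stress rats. Neuronal markers had 0 higher and 2 lower of 10 by limma, and 3 lower at an unadjusted p under 0.05. Hypothalamic markers had 3 higher and 0 lower of 16, astrocyte markers 1 and 3 of 13, oligodendrocyte markers 0 and 2 of 10, microglial markers 2 and 0 of 8, and blood markers 2 and 0 of 4. Endothelial markers had 1 higher of 9 and meningeal markers 1 higher of 22. Of all probe sets 25.0% passed. The shares were lower for thalamic (16.7%), neuronal (20%), hypothalamic (18.8%), oligodendrocyte (20%), endothelial (11.1%) and meningeal markers (4.55%). Microglial markers had 25%, astrocyte markers 30.8% and blood markers 50%. The part of these in the members' differences was not tested, and array handling and odorant cannot be told apart where they follow the same groups.

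Restraint was set against no restraint to find what stress changed. None of the 74 splicing factor probe sets passed an adjusted p of 0.05 by limma, where 0.554% of all probe sets did (0.341% higher, 0.213% lower). At an unadjusted p under 0.05 there were 8 members, all lower in stress rats: 4 SR, 3 hnRNP and 1 SF3 probe sets. That is 10.8%, below the 16.0% of all probe sets, and under quantile normalization 13 of 14 such members were higher. A limma fit with the replicate block had 16 such members and 0 past adjustment, and its share over all probe sets is not given here. By an exact rank-sum test 7 members had an unadjusted p under 0.05 and no probe set on the array passed adjustment. Differences were negative at 55 members and positive at 19, with a median of -0.486 residual SDs, against 0.12 over all probe sets, but quantile normalization gave 13 negative and 61 positive and median centring 5 and 69. Over all probe sets the median difference was 2.26e-05 log2 units, against 0.00565 and 0.00958 under these scalings. Compressed probe sets had a median residual SD of 0.000166. The turn towards positive differences is therefore not particular to the members. No member had groups that did not overlap, where 1.78% of all probe sets had.

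The smallest adjusted p belonged to Srsf2 (1371839_at), at 0.124. Its values were -1.92 to 0.962 (median -1.47) residual SDs in stress rats, against -0.431 to 2.12 (median 1.26) in control rats. The ranges overlapped through stress rat 2, the highest of its group, and the difference was -2.24. Without stress rat 2 this Srsf2 probe set passed as lower (-3.63 residual SDs, adjusted p = 0.0497), and no other member did. Sf3b1 (1389840_at) had log2 signals of 10.34 to 10.59 (median 10.50) in stress rats, against 10.58 to 10.64 (median 10.62) in control rats, with a difference of -0.12 ± 0.04 (adjusted p = 0.16). Srsf9 was at -1.95 residual SDs (adjusted p = 0.162), Hnrnpab at -1.64 (adjusted p = 0.233), Srsf1 (1371581_at) at -1.60 (adjusted p = 0.228) and Hnrnpf at -1.40 (adjusted p = 0.272). Hnrnpd was at 0.11 ± 0.06 log2 units (adjusted p = 0.345). Snrpb and Snrpd2 were the snRNP members with the smallest p, at -1.15 and -0.985 residual SDs, and Snrpn at -0.057, Snrpa1 at 0.251, Srsf3 at -0.232 and Srsf5 at -0.041 were close to 0.

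At the 8 members with the largest linalool differences in residual SDs, the restraint comparison gave -0.818 at Snrpd1, -0.928 at Snrpe, -0.907 at Hnrnpc, -1.95 at Srsf9, -1.44 at Srsf10 (1380269_at), -0.462 at Snrpb2, 1.15 at Hnrnpd and -0.057 at Snrpn, none past the threshold. In the same order the linalool differences were 6.53, 6.18, 5.42, 4.88, 4.36, 4.27, -4.22 and 4.08. Both comparisons use the same 6 stress rats, on opposite sides, so their signs are not independent.

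Levels of cell type markers also varied between the arrays of this comparison. Meningeal marker probe sets were all short of the threshold (0 of 22, with 15 lower at an unadjusted p under 0.05 by limma), their median was -1.39 residual SDs, and their mean deviation was -0.709 to -0.246 in stress rats, against -1.03 to 1.81 in control rats. Controls 5 and 6 stood highest, at 1.81 and 1.69, with the other 4 controls at most 0.792. The same 2 controls had the highest mean over the 74 splicing factor probe sets, at 0.625 and 0.554, where stress rats had -0.642 to 0.0898. By family both were highest for SR proteins only. Control 6 was below control 1 for snRNP proteins (0.180 against 0.558) and hnRNPs (0.404 against 0.624), and control 5 was at 0.000789 for SF3 subunits. Control 1 was at 0.416 over the 74 probe sets but lowest for the meningeal markers, at -1.03. Without controls 5 and 6 no probe set on the array passed, and 5 members had an unadjusted p under 0.05. Of 10 neuronal marker probe sets 0 passed by limma and 3 were higher at an unadjusted p under 0.05, with a mean deviation of 0.201 to 0.826 in stress rats, against -0.655 to -0.254 in control rats. Endothelial markers were the 1 list with a call, 1 lower of 9 (adjusted p = 0.0351) and 3 lower at an unadjusted p under 0.05, with a median of -0.862 and a mean deviation of -1.17 to 0.00676 in stress rats, against -0.722 to 1.10 in control rats. The part of these in the members' differences was not tested.

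**Figure D5:**
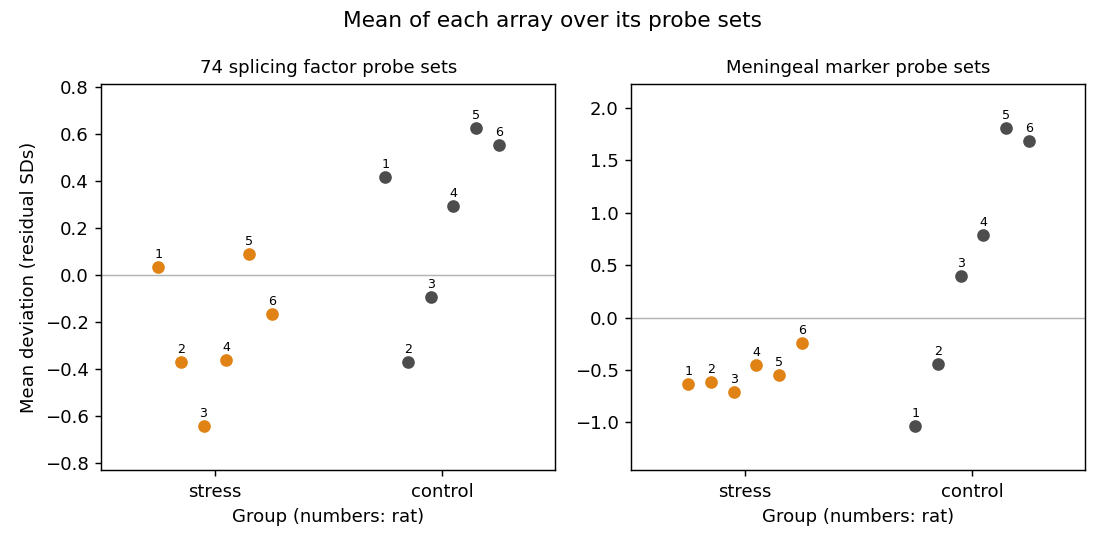
Mean deviation of each array from the 12-array mean, in residual SDs, over the 74 splicing factor probe sets (left) and over the meningeal marker probe sets (right), stress rats left of control rats, with rat numbers at the points. Controls 5 and 6 are the highest in both panels, at 0.625 and 0.554 on the left and 1.81 and 1.69 on the right.

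None of the 280 probe sets of the other splicing lists passed between stress and control rats by limma, where 41 had an unadjusted p under 0.05 (15 higher, 26 lower), or 14.6% against 16.0% of all probe sets, and the median was -0.289 residual SDs. Under quantile normalization 57 were higher and 7 lower at an unadjusted p under 0.05, so the direction turned. By list the median ran from -0.508 for SR kinases and partners to 0.167 for Sm-like and assembly genes.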

How the data were processed

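Total RNA from hypothalamic blocks of 18 rats was measured, 1 array of 3′ expression type per rat. Per the labels' protocols, RNA was extracted with TRIzol, purified on a Maxwell instrument, and 500 ng made into biotin-labelled cRNA. The deposited values are log2 signals per probe set, read as log2 from their range. The series design text says that the authors normalized them in 2 sets of 12 columns. How signals were summarized and normalized was not given in the sources used here.

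All 31042 probe sets that are not array controls (57 of 31099) were fitted within each set, without covariates, with limma 3.58.1 (lmFit, eBayes) in R 4.3.3, two-sided, adjusted by Benjamini-Hochberg over all of them at 0.05. Array controls were adjusted among themselves. The fits were tested on simulated data. Gene symbols came from GEO's platform annotation: 20826 tested probe sets had 1 symbol, 436 several and 9780 none listed here. All 46 member genes matched RefSeq by gene identifier. A residual SD is the within-group SD of a probe set over its 12 columns; the value of 0.01 that marks compressed probe sets was settled after the values were seen.

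The members, the other gene lists and the tests were chosen with earlier results of these data known. By a rule, per comparison and family, up to 3 members higher and 3 lower with the largest log2 difference and up to 2 and 2 compressed ones with the smallest p are named, or the 2 with the smallest p where none passed, and 10 genes always (Srsf1, Srsf3, Srsf5, Snrpn, Snrpa1, Hnrnpa1, Hnrnpd, Hnrnpk, Sf3b1, Sf3a1), of which Hnrnpk has no member probe set. Further members are named to account for all of them, after their values were seen. Of the other lists up to 3 higher and 3 lower with the smallest p are named. Every array comes from a different rat, so a p-value reflects variation between rats, and the number of arrays limits the precision. Alternatives were quantile normalization, median centring of the columns (also with the shift in residual SDs), an ordinary t statistic, an exact rank-sum test, a filter on low signals, 1 probe set per gene, a replicate block, and leaving out each rat, or controls 5 and 6.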

Additional observations from a re-analysis of the deposited data

Results flagged for a closer look

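Of 110 groups of 6 values examined (the named probe sets in each group), 8 held a rat that stood apart from the other 5 by Dixon's criterion; chance alone gives about 1 in 20. Values are deviations from the 12-array mean in residual SDs. Among linalool rats, rat 5 was high for Hnrnpc, at 3.64, and low for Snrpb2, at 0.40, and both stayed on the linalool side of every stress rat. Among stress rats in the linalool set, rat 1 was low for Snrpn, at -4.19, rat 3 low for Hnrnpa0, at 0.418, and rat 6 low for Sf3b1 (1389840_at), at -1.17. Stress rat 2 was high for Sf3b5, at 0.714, and for Srsf2, at 3.02. The same rat was high for Srsf2 in the set with the controls, at 0.962, which is the same array normalized again.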

How the results depend on the processing

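In linalool against stress rats, quantile normalization called 2612 probe sets in all and 17 members (9 higher, 8 lower), and median centring of the columns 28978 and 72 (66 and 6). One shift per column exceeds the residual SD of a compressed probe set, so under centring compressed members take nearly the same value. Centring with the shift expressed in residual SDs, chosen after seeing the data, called 7731 probe sets and the same 34 members in the same direction. With 1 probe set per gene, 4229 probe sets and 23 of 46 genes passed (8 lower), and the exact rank-sum test had 9 members lower. A fit with the replicate block called 22 members (8 lower) and 5548 probe sets. In the labels same-numbered rats share only a number. Their deviations correlated at over 0.1 in 1 of 6 pairs here and in 4 of 6 in the stress comparison, and 1 and 3 of 6 rats correlated best with their own number. In the stress comparison the same-numbered pairs were all positive, at 0.0755 to 0.223, against -0.266 to 0.218 for other pairs. Here they were at -0.105 to 0.182, against -0.248 to 0.170. The lower members numbered 9 to 14 with 1 rat left out, 9 being without stress rat 1. Of 34 named probe sets 14 kept direction and call under quantile normalization, 20 under median centring and 28 under the rank-sum test. Signs turned, in residual SDs, under quantile normalization at Hnrnpl (-2.05), Srsf1 (-1.16 and -0.15), Hnrnpa1 (-0.437, -0.271 and 0.132), Sf3b4 (0.111), Sf3a1 (1.03 and 1.32) and Snrpa1 (1.35). Under median centring Hnrnpa2b1 (1.39), Hnrnpa3 1370872_at (1.40), Hnrnpa1 1375612_at (1.47), Sf3b4 (1.42), Sf3a1 (1.43 and 1.41), Sf3b1 1390234_at (1.43), Snrpa1 (1.44), Srsf2 (1.43) and Srsf5 (1.43) did.

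In stress against control rats, the count over all probe sets was 172, against 78 under quantile normalization, 90 under centring, 101 with 1 probe set per gene, 16 with the replicate block, 0 by the rank-sum test and 0 without controls 5 and 6. With 1 rat left out it ranged from 24 (stress rat 1) to 205 (control 2), with 37, 76 and 29 without stress rats 3, 4 and 5 and 74, 87, 52 and 48 without controls 1, 3, 5 and 6. The members called were 0 in every setting but one, with 1 without stress rat 2. Signs of uncalled members turned under quantile normalization at Hnrnpab (1.46), Hnrnpf (1.00), Hnrnpa1 (1.61 and 1.27), Sf3a1 (1.43), Sf3b1 (0.37), Snrpb (0.762), Snrpd2 (0.578), Snrpn (1.11), Srsf2 (0.758), Srsf9 (0.243), Srsf1 (0.186 and 0.807) and Srsf3 (0.851). Under median centring these 14 turned too: Hnrnpab and Srsf1 1371581_at (1.11), Hnrnpf (1.10), Hnrnpa1 (1.11 at 2 probe sets), Sf3a1 (1.11), Sf3b1 (1.12), Snrpb (1.10), Snrpd2 (1.11), Snrpn (1.11), Srsf2 (1.09), Srsf1 1374072_at (1.14), Srsf3 (1.12) and Srsf9 (0.298), and also Srsf5 (0.293). Without controls 5 and 6 so did Sf3a1 (0.056), Sf3b1 (0.0897), Snrpn (0.0874), Srsf3 (0.442) and Srsf5 (0.524), and by the rank-sum statistic Snrpn (3) and Srsf3 (1). Which scaling is nearer to RNA amounts was not tested. For compressed members only the order of the rats and the spread between them can be read, not the size of a change.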
